A study of Mus musculus with 6 samples.

Results

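The secreted ligands of the bone morphogenetic protein (BMP) and activin branches and the proteins that hold them back were followed in cells sorted from mouse back skin. The panel had 10 members chosen by gene symbol, Bmp2, Bmp4, Bmp6, Bmp7, Gdf10, Inhba, Inhbb, Fst, Fstl1 and Bmper, and all 10 were among the 32285 genes counted in each library. Single-cell RNA-seq with the 10x Genomics 3′ kit, which counts unique molecular identifiers (UMIs) near the 3′ end of each transcript, was run on 6 libraries from 3 groups of 2 mice. The WT telogen libraries came from mice at postnatal day (PD) 20 and the WT anagen libraries from mice at PD 32. Both WT groups carried the alleles tdTomato, Cdh5-CreERT2 and Krt14-H2BGFP on a mixed C57BL/6;CD1 strain. The Alk1 KO libraries came from telogen mice at PD 25 of strain C57BL/6 that carried Alk1 flox/flox, tdTomato and Cdh5-CreERT2, as their titles and descriptions say, while their genotype field reads wild type. Every mouse received tamoxifen at PD 17 (200 µg/g), so that the Cre driven by the Cdh5 promoter of endothelial cells (ECs) turned on tdTomato, and in the KO mice acted on Alk1. Live tdTomato+ cells were sorted, in the WT mice with GFP+ cells gated out. The study describes the KO data as a previous dataset of its authors. The KO and WT telogen libraries thus also differed in age, strain, the H2BGFP allele, the GFP gate and the dataset. These cannot be told apart from the deletion.

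BMPs bind paired type I and type II serine/threonine kinase receptors on a neighbouring cell and act through Smad1, Smad5 and Smad9, whereas activins, which are dimers of inhibin beta subunits, act mainly through Smad2 and Smad3. Antagonists such as follistatin bind the ligands outside the cell. In skin, BMP signalling is known to hold hair follicle stem cells quiescent in telogen, and ALK1 (gene Acvrl1) is an endothelial type I receptor whose known high-affinity ligands are BMP9 and BMP10. Follistatin and the activins are known for roles in follicle growth and wound repair.

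The libraries held 4179 and 5977 barcodes in telogen, 5834 and 6643 in anagen and 2283 and 2502 in the KO, and 20941 cells remained after keeping 200 to 5000 genes and under 10% mitochondrial UMIs. Total UMIs per library lay between 10615358 and 43317677, and the KO libraries were the shallowest. Libraries shared between 1 and 8 barcodes per pair. Cells were clustered without the 10 members and without the other BMP and activin pathway genes, and clusters were called from markers, so that each name stands for "X-like". The ECs were split into artery-like, vein-like, Cap-Kdr-like and Cap-Rgcc-like capillary, lymphatic collecting-like (Lymph-Col) and lymphatic capillary-like (Lymph-Cap) populations, and the non-endothelial cells that passed the sort into perineurial-like, pericyte-like, fibroblast-like, Schwann-like and immune populations. Levels are given as CPM, the UMIs of the gene per 1000000 UMIs of that population in that library, and values are listed in the order S1 and S2 of each group. A comparison between libraries was called where edgeR's quasi-likelihood test gave a Benjamini-Hochberg adjusted p under 0.05 over all genes tested and a fold over 1.3. Each group had 2 mice, so every p rests on the spread between 2 libraries per group.

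In WT skin most members had more than their share of UMIs in 1 or 2 populations. Of all WT UMIs of Gdf10, 86.8% came from lymphatic ECs, which held 9.40% of the UMIs of all genes. Blood ECs gave 77.8% of the Inhbb UMIs, 55.1% of Bmp6 and 54.8% of Bmp4, beside 27.7% of the UMIs of all genes. Fibroblast-like cells gave 83.4% of Bmper and 54.3% of Fst, beside 6.14% of all UMIs. Perineurial-like cells, which wrap nerve bundles, gave 39.8% of Inhba and 35.3% of Fstl1, beside 11.3% of all UMIs. Bmp2 was spread, with 21.5% of its UMIs in blood ECs, 20.0% in immune, 14.9% in pericyte-like and 13.8% in perineurial-like cells. Another 13.6% lay in ECs outside the named EC populations and 12.7% in fibroblast-like cells. These 6 held 27.7%, 31.0%, 3.16%, 11.3%, 7.61% and 6.14% of the UMIs of all genes, so the blood EC and immune shares of Bmp2 were below their background. Bmp7 was split, with 30.4% in perineurial-like and 30.7% in fibroblast-like cells.

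**Figure D1:**
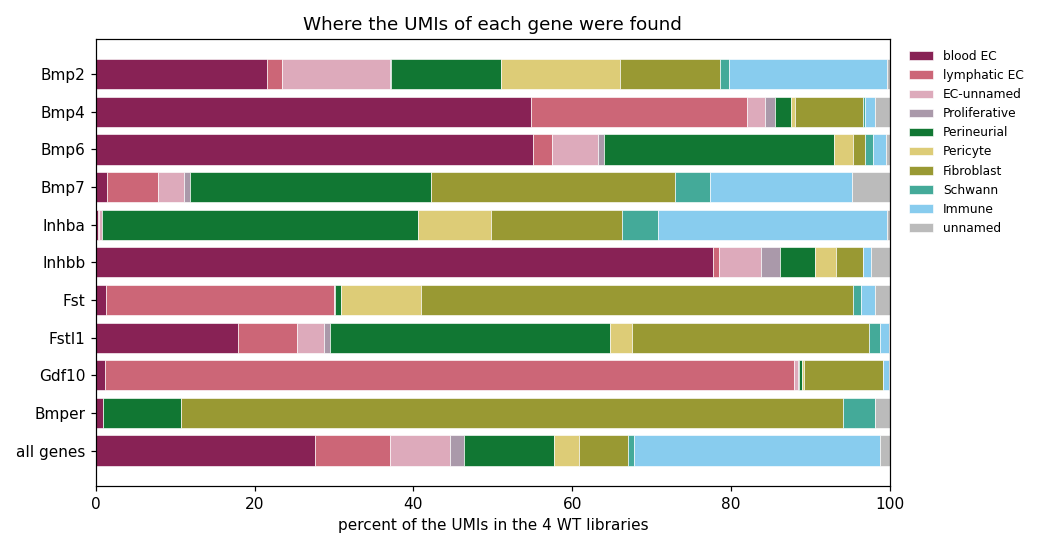
Percent of the UMIs of each of the 10 genes, and of all genes, that came from each population, summed over the 4 WT libraries; each bar is 1 gene and adds to 100%. Gdf10 lies mostly in lymphatic ECs (86.8%), Inhbb in blood ECs (77.8%) and Bmper in fibroblast-like cells (83.4%).

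Between populations of the same WT libraries, fitted with the library as a block, 44 of 50 pairs of member and comparison could be tested and 34 were called, 16 higher and 18 lower. Of all genes, 48.7% were called (24.2% higher and 24.5% lower) in the same 5 comparisons. The members' share cannot be read against that background as a result. The members were chosen with earlier results of these data known, and some entered the test largely through the population that held them. Inhba, for one, had 12 UMIs in 9527 WT ECs. By comparison, 6 of 7 members tested were called between blood and lymphatic ECs (49.1% of all genes), 8 of 9 between perineurial-like cells and ECs (63.4%), 8 of 10 between fibroblast-like cells and ECs (53.1%), 4 of 8 between pericyte-like cells and ECs (25.4%) and 8 of 10 between perineurial-like and fibroblast-like cells (51.7%). All 10 members were called in at least 1 of the 5.

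The sequences upstream of 3 members are shown because each was mainly detected in another compartment, Inhbb in blood ECs, Gdf10 in lymphatic ECs and Inhba outside the endothelium. They are the 250 bases before the annotated start in RefSeq (build GRCm38.p6), at chr1:119422249-119422498 on the minus strand for Inhbb, chr14:33923337-33923586 on the plus strand for Gdf10 and chr13:16011601-16011850 on the plus strand for Inhba, written 5′ to 3′ along the gene. Capitals mark TATAAA, the TATA-box letters.
Inhbb: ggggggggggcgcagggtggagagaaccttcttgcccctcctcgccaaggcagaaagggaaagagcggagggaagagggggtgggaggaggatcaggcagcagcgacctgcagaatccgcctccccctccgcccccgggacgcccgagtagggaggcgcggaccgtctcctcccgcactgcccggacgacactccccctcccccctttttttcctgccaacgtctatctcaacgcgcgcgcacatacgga
Gdf10: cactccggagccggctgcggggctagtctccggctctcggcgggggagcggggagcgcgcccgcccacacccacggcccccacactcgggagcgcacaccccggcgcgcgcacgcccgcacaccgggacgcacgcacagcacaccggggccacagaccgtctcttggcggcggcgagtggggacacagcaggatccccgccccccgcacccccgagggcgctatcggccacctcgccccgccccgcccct
Inhba: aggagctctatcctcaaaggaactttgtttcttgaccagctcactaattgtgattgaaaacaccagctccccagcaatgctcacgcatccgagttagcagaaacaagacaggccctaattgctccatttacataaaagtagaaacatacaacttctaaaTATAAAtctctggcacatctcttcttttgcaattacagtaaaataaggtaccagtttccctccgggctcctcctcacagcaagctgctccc
RefSeq windows were matched for 7 of the 10 members. Both strands were searched for TATAAA, which 12.37% of 32851 such windows hold, for the Smad-binding letters CAGACA (17.13%) and for the BMP-responsive letters GGCGCC (9.586%), and none of the 3 motifs overlaps another in letters. Of the 7 windows, only that of Inhba held any of them, 1 copy of TATAAA. A match describes letters and is not evidence of a site, and no match says only that the letters are not in this window.

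Bmp2 (chr2:133552159-133562885, plus strand, GRCm38) encodes a BMP ligand known for roles in dermal and endothelial signalling. Its highest WT mean was in pericyte-like cells, with 58.5 and 59.7 CPM in telogen and 36.0 and 57.7 in anagen, against 11.7, 13.96, 8.47 and 7.15 in blood ECs. The pericyte-like values all lay above those of blood ECs. Pericyte-like cells were higher than all ECs by 2.39 on the log2 scale (SE 0.18, adjusted p = 6.1e-06) and blood ECs were higher than lymphatic ECs by 2.20 (SE 0.26, adjusted p = 8.3e-06).

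Bmp4 (chr14:46383520-46390669, minus strand), a BMP ligand that also acts in vascular development, was found in large-vessel and lymphatic ECs rather than in capillaries of the blood. Lymph-Cap cells had 48.4, 52.9, 37.7 and 65.7 CPM in the 4 WT libraries, vein-like ECs 28.1, 55.7, 40.9 and 53.2, and artery-like ECs 26.9, 41.1, 28.9 and 47.8. These 3 populations overlapped and their order is not resolved by the spread. Cap-Kdr and Cap-Rgcc had WT means of 5.97 ± 3.91 and 4.78 ± 2.996 CPM (SD, n = 4), below every artery-like and vein-like library. Blood ECs as a whole were lower than lymphatic ECs by 0.53 on the log2 scale (SE 0.14, adjusted p = 0.0050), a call that ended when all 6 libraries entered the fit and under the stricter cell limits.

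Bmp6 (chr13:38345107-38500302, plus strand), a BMP ligand that endothelium is known to release and that controls hepcidin in the liver, marked arteries. Artery-like ECs had 91.8, 64.6, 51.9 and 87.8 CPM, Cap-Kdr 30.1, 26.0, 23.0 and 22.0, and Cap-Rgcc 8.15, 8.24, 8.57 and 5.29. No library of a lower population reached the lowest library of the next higher one. Thinned to 1500 UMIs per cell, 14.8%, 7.53%, 6.96% and 10.4% of artery-like cells had a Bmp6 UMI, with exact 95% binomial intervals from 9.29% to 21.9% in telogen S1 and from 4.89% to 9.54% in anagen S1. The unthinned shares ran from 18.2% to 35.0%. In Lymph-Col cells the thinned share was at most 0.79% (0.16% to 2.30%), with median depths of 3396.5 to 4471 UMIs there and 3870 to 5955 in the artery-like cells. Thinning left out 2 to 50 artery-like cells per WT library. Blood ECs were higher than lymphatic ECs by 3.11 (SE 0.19, adjusted p = 1.2e-08) and perineurial-like cells were higher than all ECs by 0.76 (SE 0.13, adjusted p = 7.4e-04). The artery-like mean moved from 74.0 to 51.0 CPM with clusters at resolution 1.2 and to 51.9 without the correction between libraries.

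Bmp7 (chr2:172868012-172940321, minus strand), a BMP ligand known from epithelium, gave few UMIs here. Blood ECs held 4 WT UMIs in 5456 cells. Fibroblast-like cells had 16.9 and 4.70 CPM in telogen and 5.46 and 24.0 in anagen, and perineurial-like cells had 7.8, 3.4, 9.3 and 7.0. Fibroblast-like cells were higher than ECs by 4.49 (SE 0.51, adjusted p = 5.2e-05) and perineurial-like cells by 3.38 (SE 0.33, adjusted p = 3.3e-05), while perineurial-like cells were lower than fibroblast-like cells of the same libraries (log2 difference -1.295, SE 0.33, adjusted p = 0.0070), a call that ended without WT anagen S2 (-0.92, adjusted p = 0.062).

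Gdf10 (chr14:33923587-33937983, plus strand), also named Bmp3b, encodes a divergent ligand of the BMP3 group, and within the endothelium it was found in collecting lymphatics. Lymph-Col cells had 130 and 178 CPM in telogen and 199 and 178 in anagen, Lymph-Cap cells 1.15, 7.78, 5.87 and 3.46, and no WT library of blood ECs exceeded 0.84. Lymph-Col values stood far above those of every other EC population. Blood ECs were lower than lymphatic ECs by 7.64 on the log2 scale (SE 0.19, adjusted p = 9.1e-12). Thinned to 1500 UMIs, 15.2%, 20.1%, 21.3% and 18.5% of the WT Lymph-Col cells had a Gdf10 UMI (unthinned 35.2%, 36.5%, 43.9% and 32.4%), with exact 95% intervals from 11.6% at the lowest to 25.0% at the highest. No thinned artery-like cell had one, at 0 of 135, 146, 503 and 709 cells per library, which allows shares of up to 2.22%, 2.05%, 0.60% and 0.42% of cells with a UMI at that depth, not of cells expressing the gene. Unthinned, 2 of 1565 WT artery-like cells had a Gdf10 UMI.

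The activin subunits took opposite sides. Inhbb (chr1:119415465-119422248, minus strand), which encodes the beta B subunit of activin B, was a blood EC gene with 22.6, 25.2, 31.5 and 22.1 CPM, against at most 1.17 in lymphatic ECs. The difference was 5.13 on the log2 scale (SE 0.25, adjusted p = 2.1e-09). Within blood ECs it was in veins and capillaries, with vein-like values of 22.0, 27.4, 35.9 and 38.7 CPM and artery-like values of 0.31 to 4.22. Inhba (chr13:16011851-16031621, plus strand), which encodes the beta A subunit of activin A, gave 4 UMIs in 5456 WT blood ECs and 3 in 2467 WT lymphatic ECs. Perineurial-like cells had 43.2, 36.3, 46.8 and 52.9 CPM, fibroblast-like cells 41.9, 11.1, 40.1 and 65.5, and pericyte-like cells 7.8, 49.6, 27.0 and 118. Schwann-like cells, 106 in all, had 49.7, 96.3, 57.5 and 0 CPM. The pericyte-like mean moved from 50.7 to 5.01 CPM under the stricter cell limits (500 genes, 5% mitochondrial UMIs). The first 3 populations overlapped, and each was higher than ECs, by 7.55 (SE 0.43), 7.76 (SE 0.58) and 7.63 (SE 0.73) on the log2 scale with adjusted p of 1.6e-06, 2.9e-06 and 3.8e-05, but under the stricter limits the pericyte-like difference could not be tested, since Inhba did not pass the low-count filter.

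Among the antagonists, Fst (chr13:114452290-114458951, minus strand), which encodes follistatin and binds activins, was detected in lymphatic ECs and in fibroblast-like cells. Lymphatic ECs had 43.2, 66.7, 58.5 and 35.4 CPM and blood ECs at most 1.75. Blood ECs were lower by 5.89 (SE 0.28, adjusted p = 1.8e-09). Fibroblast-like cells had 101, 186, 128 and 189 CPM and were higher than ECs by 3.88 (SE 0.39, adjusted p = 2.4e-05). In pericyte-like cells the value of 167 CPM in anagen S1 stood apart from 16.4, 21.6 and 3.04 in the other WT libraries, and 37 of its 167 UMIs lay in 1 cell.

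Fstl1 (chr16:37776873-37836514, plus strand), a secreted follistatin-like glycoprotein that can bind BMP4, was detected in every structural population. Fibroblast-like cells had 1429, 1807, 1462 and 1100 CPM and perineurial-like cells 976, 1122, 901 and 808. Among ECs, artery-like cells had 547, 647, 473 and 426 CPM and Lymph-Cap cells 429, 576, 409 and 497, which overlapped, whereas Cap-Kdr cells had 59.6 to 70.8 and Cap-Rgcc cells 65.2 to 76.9. Each lymphatic and blood compartment thus held a high and a low population, and blood and lymphatic ECs as a whole differed by -0.07 (SE 0.12, adjusted p = 0.64). Bmper (chr9:23223076-23485200, plus strand), a secreted BMP-binding protein known from endothelial precursor cells, was all but missing from the ECs, at 2 UMIs in 9527 WT ECs. Fibroblast-like cells had 16.5, 31.9, 29.2 and 14.9 CPM, a ratio to ECs of 702 with an exact counting interval of 192 to 5839.

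**Figure D2:**
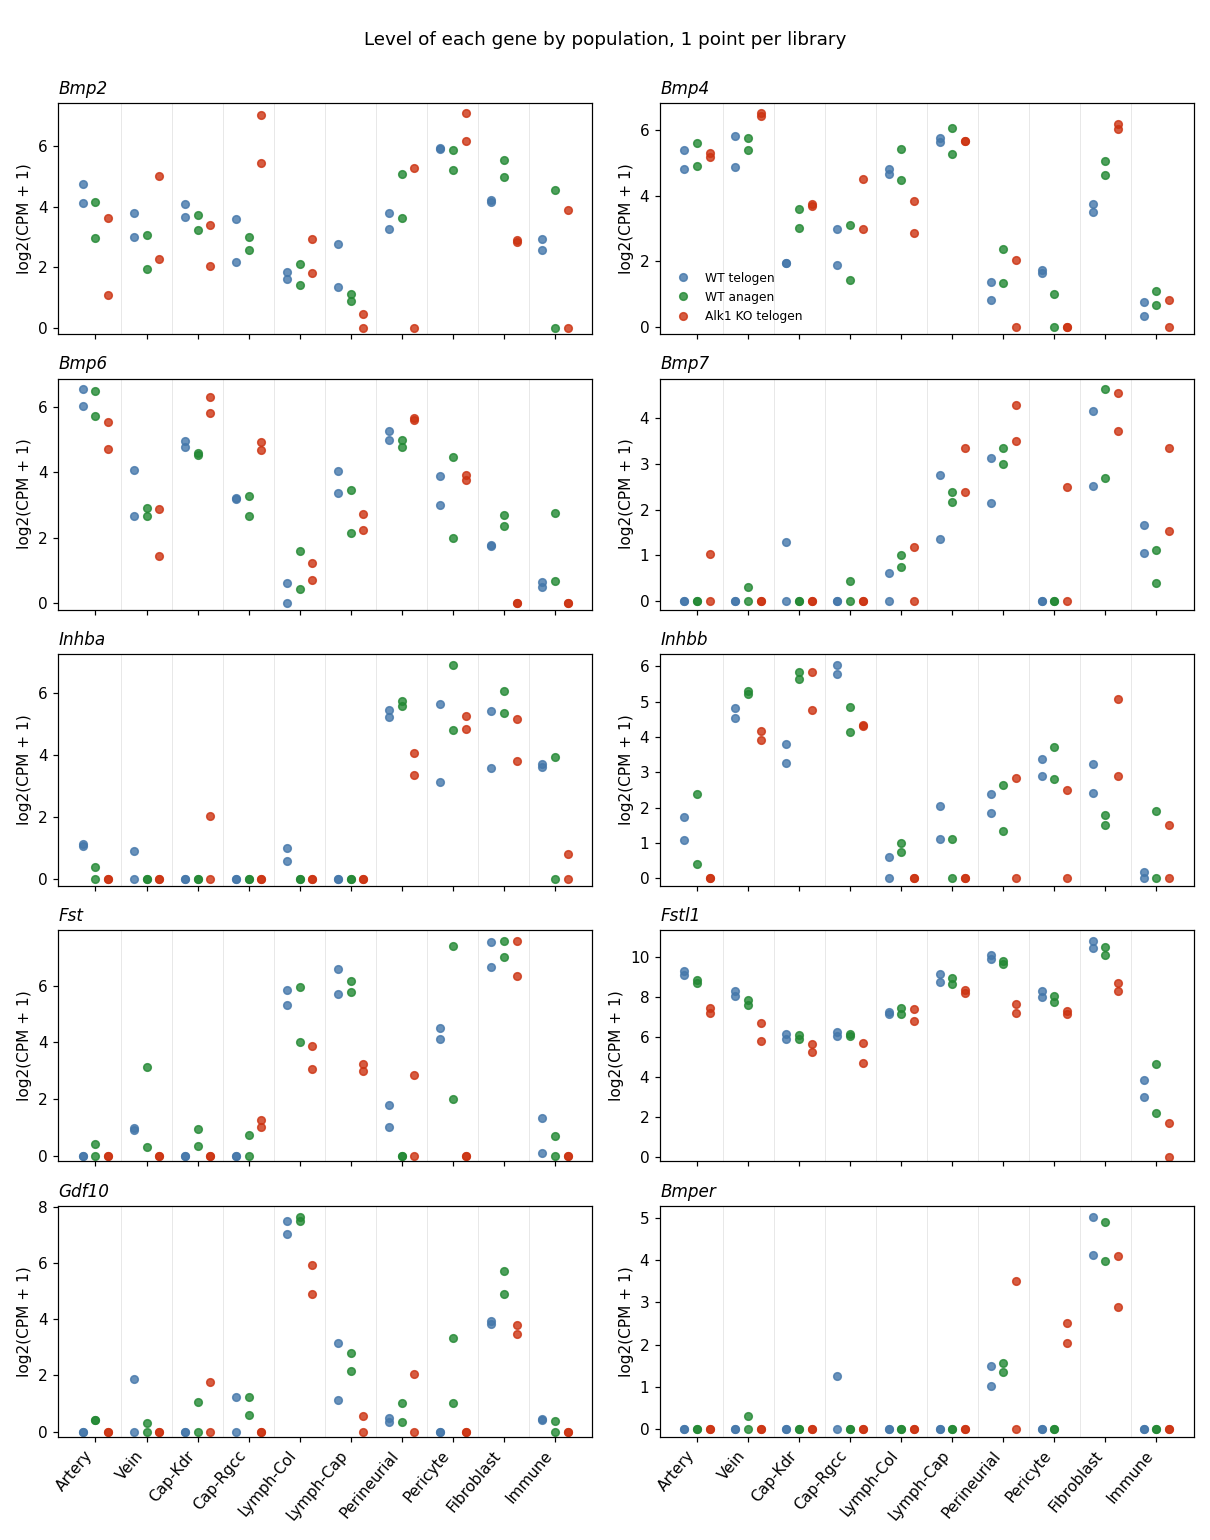
Levels of the 10 genes, 1 panel each, as log2(CPM + 1) per library (points) in 10 populations for WT telogen, WT anagen and Alk1 KO telogen. Gdf10 is high in Lymph-Col alone among the EC populations, Inhba is near 0 in every EC population, and the KO points of Fstl1 lie under the WT points in arteries, veins, perineurial-like and fibroblast-like cells.

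The comparison of anagen with telogen asked which signals differed between the resting and the growing phase of the hair cycle in WT mice. Across the 7 broad populations (blood EC, lymphatic EC, perineurial-like, pericyte-like, fibroblast-like, Schwann-like and immune), 34 of 70 pairs of member and population could be tested and edgeR called 0, where 0.358% of all genes tested were called (0.0245% in blood ECs, 1.55% in lymphatic ECs, 0.635% in perineurial-like cells, 0.0755% in fibroblast-like cells and 0 in the other 3). An unadjusted p under 0.05 was reached by 8 of the 34, DESeq2 also called 0, and 8 were called without the low-count filter. With 2 libraries per group and so few calls among all genes, the lack of calls does not show that the members' levels were alike. In the 6 EC populations 25 of 60 pairs could be tested and 1 was called, against 0.627% of all genes (1.61% in Lymph-Col, 0.767% in Cap-Rgcc, 0.668% in vein-like ECs, 0.428% in Lymph-Cap, 0.166% in Cap-Kdr and 0 in artery-like ECs). The pairs not tested had too few UMIs to enter the fit.

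The 1 call was Inhbb in Cap-Kdr capillaries. Its level was 12.9 and 8.67 CPM in telogen (9 and 6 UMIs) and 56.2 and 48.6 in anagen (205 and 53 UMIs), so both anagen libraries were above both telogen libraries. It rose by 2.33 on the log2 scale (SE 0.33, adjusted p = 0.036). In Cap-Rgcc capillaries the levels went the other way, with 53.5 and 64.5 CPM in telogen and 27.7 and 16.7 in anagen, a difference of -1.32 that was not called (SE 0.29, adjusted p = 0.080). With both capillary populations summed, a comparison added after seeing the data, Inhbb was 35.3, 37.3, 40.4 and 21.7 CPM and differed by -0.09 (SE 0.29, adjusted p = 0.94, with 0.0836% of all genes called). These values moved with the clustering. The WT mean in Cap-Rgcc went from 40.6 CPM to 11.96 with clusters at resolution 1.2 and to 7.99 without the correction between libraries, and the Cap-Kdr call ended without that correction (0.81, adjusted p = 0.21) but held at resolution 1.2 (2.23, adjusted p = 0.025). It also ended under the stricter cell limits (2.18, adjusted p = 0.098) and with cells thinned to 3000 UMIs (3.15, adjusted p = 0.058), and DESeq2 did not make the call. The cause of these losses was not tested. In vein-like ECs all anagen values were above telogen, by 0.73 (SE 0.23), with an adjusted p of 0.20.

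The members nearest to a call outside the ECs were in fibroblast-like cells, of which the anagen libraries held 83 and 95. Gdf10 was 13.3 and 14.4 CPM in telogen and 52.0 and 29.0 in anagen, Bmp4 was 12.5 and 10.4 against 23.7 and 32.3, and Bmp2 was 17.7 and 16.8 against 45.6 and 30.7. In all 3 the anagen values were above the telogen values. The differences were 1.62 (SE 0.34, adjusted p = 0.14), 1.38 (SE 0.29, adjusted p = 0.14) and 1.23 (SE 0.29, adjusted p = 0.16), and none passed the test. In anagen S1, 25 of the 57 Gdf10 UMIs lay in 1 cell. In perineurial-like cells Inhba was 43.2 and 36.3 CPM in telogen and 46.8 and 52.9 in anagen, a difference of 0.41 (SE 0.17, adjusted p = 0.30). Fstl1 in blood ECs was 248 and 298 CPM in telogen against 189 and 183 in anagen, a difference of -0.41 (SE 0.13, adjusted p = 0.29). The marker list of 8 fibroblast genes, collagens included, summed to 54.6 and 78.3 CPM in telogen blood ECs and to 21.4 and 31.0 in anagen blood ECs, with all 8 detected in each, and its part in the Fstl1 values was not tested.

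The comparison of Alk1 KO with WT telogen asked how the signals stood when Alk1 was targeted with the Cdh5-driven Cre. The study reports Cdh5 expression in perineurial cells as well, so this Cre was not limited to ECs. Acvrl1 UMIs remained, at 193 and 168 CPM in the WT telogen blood ECs, 151 and 159 in anagen and 165 and 161 in the KO. The exons flanked by loxP sites are not given in the sources used here, and a 3′ tag outside the deleted part checks nothing. Acvrl1 was called lower in the KO in Cap-Kdr cells (212 and 165 CPM in WT telogen, 113 and 102 in the KO, adjusted p = 0.0070), in Cap-Rgcc cells (184 and 166 against 106 and 104, adjusted p = 0.022), and in cells called fibroblast-like (37.4 and 40.3 against 22.7 and 18.2, adjusted p = 0.020), but not in blood ECs as a whole (log2 difference -0.17, adjusted p = 0.37). In pericyte-like cells its difference was -1.87 (adjusted p = 0.052).

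Fstl1, Fst and Gdf10 were lower in the KO in several populations, and Bmp4 and Bmp2 were higher in some. Across the 7 broad populations 35 of 70 pairs could be tested and 13 were called, 3 higher and 10 lower, where 20.6% of all genes tested were called (9.33% higher and 11.3% lower). In the 6 EC populations 23 of 60 could be tested and 14 were called, 5 higher and 9 lower, against 18.8% of all genes (8.66% higher and 10.2% lower). By population, 4 of 5 members tested were called in blood ECs (31.2% of all genes), 2 of 5 in lymphatic ECs (25.3%), 2 of 5 in perineurial-like cells (21.7%), 3 of 9 in cells called fibroblast-like (38.1%), 1 of 2 in Schwann-like cells (9.31%), 1 of 4 in immune cells (6.51%) and 0 of 5 in pericyte-like cells (5.7%). Among ECs they were 3 of 4 in Lymph-Col (16.1%), 3 of 4 in Cap-Rgcc (19.6%), 2 of 3 in Cap-Kdr (27.7%), 2 of 4 in Lymph-Cap (15.3%), 2 of 4 in artery-like (18.3%) and 2 of 4 in vein-like cells (18.5%). The members were chosen with earlier results of these data known, and the study itself lists Fstl1 among the genes lowered in KO perineurial cells. The members' shares thus cannot be read against the shares of all genes as a result. The WT telogen libraries served as the reference here and in the anagen comparison, so the 2 sets of differences are not independent.

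**Figure D3:**
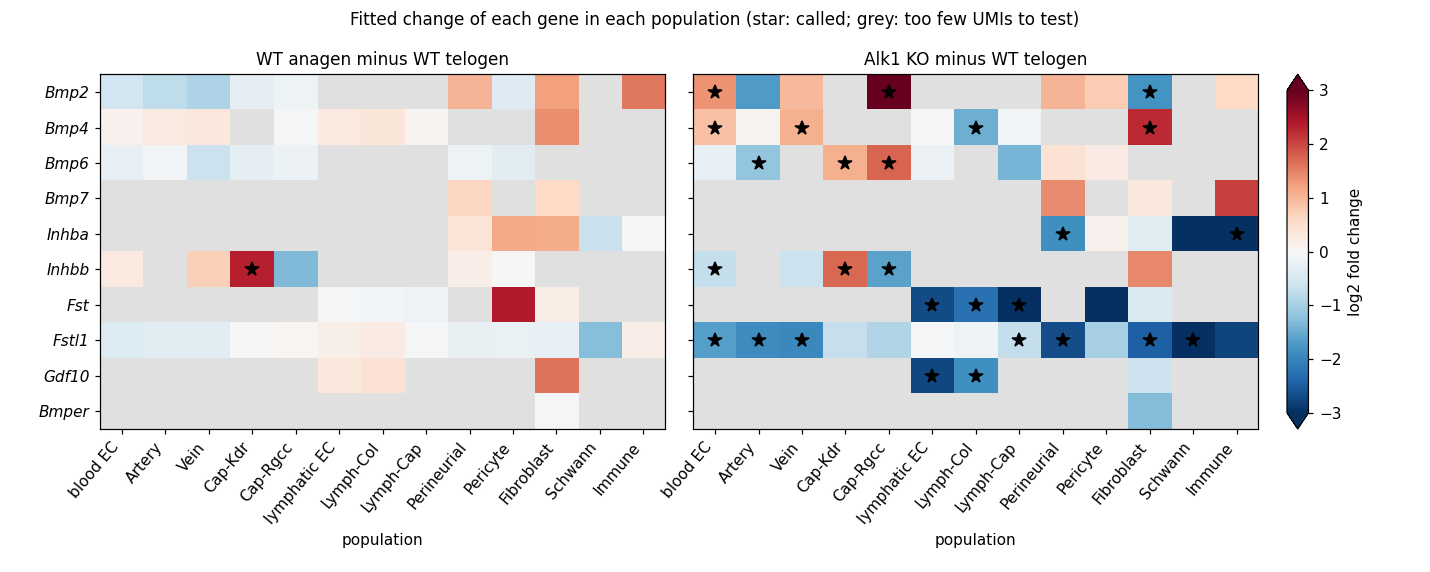
Log2 fold change of each of the 10 genes (lines) in each population (columns), for anagen minus telogen and for Alk1 KO minus WT telogen; a star marks a called difference and grey a pair not tested. In the KO panel Fstl1 is negative and starred in blood ECs, arteries, veins, perineurial-like and fibroblast-like cells. The anagen panel has 1 star, Inhbb in Cap-Kdr, a call that ended in 3 of the settings tried and that DESeq2 did not make.

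Fstl1 had the most calls. In blood ECs it was 248 and 298 CPM in WT telogen, 189 and 183 in anagen and 77.3 and 98.5 in the KO, and the KO values lay below all WT values. It was lower than in WT telogen by 1.66 on the log2 scale (log2 fold change -1.66, SE 0.16, adjusted p = 5.4e-06). Artery-like ECs went from 547 and 647 CPM to 176 and 151 (-1.88, SE 0.18, adjusted p = 1.8e-06) and vein-like ECs from 266 and 318 to 55.1 and 103 (-1.93, SE 0.25, adjusted p = 3.4e-04). In lymphatic ECs the values were 231 and 258 CPM in WT telogen and 243 and 252 in the KO, which overlapped (-0.04, SE 0.12, adjusted p = 0.85). These sums pool Lymph-Col and Lymph-Cap cells, and there were more Lymph-Cap cells in the KO, as given below. The WT mean was 478 CPM in Lymph-Cap cells and 153 in Lymph-Col cells, and the part of the make-up in these values was not tested. The difference between the blood and the lymphatic response was itself called, at -1.59 (SE 0.16, adjusted p = 1.1e-05), 1 of 3 calls among 7 members tested for that difference, where 18.1% of all genes were called. Lymph-Cap cells, with 429 and 576 against 296 and 335 CPM, were lower by a smaller amount (-0.72, SE 0.17, adjusted p = 0.013), a call that ended without WT telogen S2 (-0.54, adjusted p = 0.098).

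Outside the endothelium, perineurial-like cells had 976 and 1122 CPM of Fstl1 in WT telogen (3771 and 5566 UMIs) and 202 and 146 in the KO (65 and 28 UMIs), and fibroblast-like cells had 1429 and 1807 against 424 and 320. No KO value reached a WT value. The differences were -2.65 (SE 0.25, adjusted p = 1.1e-05) and -2.44 (SE 0.26, adjusted p = 3.8e-04). Schwann-like cells, of which the KO libraries held 7 and 11, gave 501 Fstl1 UMIs in WT telogen and 1 in the KO, a ratio of 31.4 with a counting interval of 5.61 to 1242.

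These Fstl1 calls moved together with the fibroblast marker list. Its 8 genes summed to 54.6 and 78.3 CPM in WT telogen blood ECs with all 8 detected, and to 3.49 and 1.07 in KO blood ECs with 5 and 2 detected and Lum, Dpt and Mfap4 at 0 in both. In perineurial-like cells the list summed to 5945 and 6216 CPM in WT telogen and to 1073 and 860 in the KO, and in the cells called fibroblast-like to 81084 and 71940 against 5373 and 4835. The KO cells called fibroblast-like thus held little of the markers of their name, which came from the 2 clusters they share with the WT cells. The KO libraries held 36 and 61 such cells and 85 and 59 perineurial-like cells. The part of this list in the Fstl1 differences was not tested. In lymphatic ECs the list summed to 63.8 and 93.3 CPM in WT telogen and to 5.19 and 3.48 in the KO, beside Fstl1 values that overlapped.

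In lymphatic ECs Fst and Gdf10 were both lower in the KO. Fst in cells called fibroblast-like, where most of its WT UMIs lay, was 101 and 186 CPM in WT telogen and 191 and 81.1 in the KO, which overlapped (-0.44, SE 0.42, adjusted p = 0.44). Fst in lymphatic ECs was 43.2 and 66.7 CPM in WT telogen, 58.5 and 35.4 in anagen and 7.10 and 10.4 in the KO (26 and 45 UMIs), with no overlap. It was lower than in WT telogen by 2.68 (log2 fold change -2.68, SE 0.26, adjusted p = 7.9e-05), a call kept in every alternative. Lymph-Cap cells went from 51.8 and 94.98 CPM to 6.99 and 8.49 (-3.25, SE 0.33, adjusted p = 8.3e-05), where the WT telogen UMIs lay in 8 and 9 cells and 30 of 45 and 23 of 61 in a single one, and Lymph-Col cells from 39.3 and 57.3 to 7.27 and 13.7 (-2.23, SE 0.33, adjusted p = 0.0021). The Lymph-Col call ended without KO S1 (-1.85, adjusted p = 0.061), without KO S2 (-2.76, adjusted p = 0.052) and without the low-count filter (adjusted p = 0.091). Thinned to 1500 UMIs, 3.19% and 6.07% of WT telogen lymphatic ECs and 1.07% and 1.79% of KO lymphatic ECs had an Fst UMI, with exact intervals from 1.84% to 5.13% and 4.19% to 8.46% in WT and from 0.43% to 2.19% and 0.98% to 2.98% in the KO. The unthinned shares were 8.12% and 9.09% in WT telogen and 2.33% and 2.96% in the KO, with median depths of 3731.5 to 4754.5 UMIs. In blood ECs of these 4 libraries the thinned share was at most 0.20%, at median depths of 4931 to 6434 UMIs.

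Gdf10 in Lymph-Col cells was 130 and 178 CPM in WT telogen, 199 and 178 in anagen and 60.2 and 28.7 in the KO, and both KO values were below every WT value. The difference was -1.85 (SE 0.29, adjusted p = 0.0027). It ended without KO S2 (-1.40, adjusted p = 0.063) and without the low-count filter (adjusted p = 0.12), and was -2.47 without KO S1. Over all lymphatic ECs Gdf10 was lower by 2.73 (log2 fold change -2.73, SE 0.31, adjusted p = 2.0e-04), where the make-up of the lymphatic ECs also differed, with 887 Lymph-Cap cells in the KO, 337 in WT telogen and 392 in anagen. The thinned share of Lymph-Col cells with a Gdf10 UMI was 15.2% and 20.1% in WT telogen and 6.21% and 4.64% in the KO, with exact intervals up to 9.63% and 7.54% in the KO and from 11.6% and 16.3% in WT telogen. Bmp4 in the same cells was 26.9 and 24.5 CPM against 13.2 and 6.24 (-1.46, SE 0.36, adjusted p = 0.022), a call that ended without KO S2 (-0.998, adjusted p = 0.13) and in 3 of the other settings. The 7 markers of the Cap-Kdr list, all detected, summed to 461 and 438 CPM in WT telogen lymphatic ECs and to 1311 and 1275 in KO lymphatic ECs, and their part in these results was not tested.

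Among the ligands, Bmp4 was higher in KO blood ECs, at 47.4 and 40.1 CPM against 17.8 and 29.1 in WT telogen and 18.2 and 27.9 in anagen. Both KO values lay above all WT values. The difference from WT telogen was 0.89 (SE 0.22, adjusted p = 0.0084), and it ended without WT telogen S1 (0.57, adjusted p = 0.12), without KO S1 (0.73, adjusted p = 0.051) and with all 6 libraries in the fit (adjusted p = 0.058). Vein-like ECs had 28.1 and 55.7 CPM in WT telogen and 89.9 and 84.7 in the KO (1.07, SE 0.28, adjusted p = 0.018), a call that ended without WT telogen S1 (0.66, adjusted p = 0.20), without the correction between libraries (0.58, adjusted p = 0.34), with DESeq2 (0.087) and with cells thinned to 3000 UMIs (0.077). Artery-like ECs, with 26.9 and 41.1 against 35.0 and 38.4, overlapped (0.11, SE 0.31, adjusted p = 0.86). In lymphatic ECs as a whole Bmp4 differed by 0.01 (SE 0.16, adjusted p = 0.96), and the difference between the blood and lymphatic responses was 0.92 (SE 0.27, adjusted p = 0.027), which ended without WT telogen S1 (adjusted p = 0.35) or KO S1 (0.18) and in 3 of the other settings. The make-up of the lymphatic ECs, with more Lymph-Cap cells in the KO, enters both of these lymphatic results, and its part was not tested. In cells called fibroblast-like Bmp4 was 12.5 and 10.4 CPM in WT telogen, 23.7 and 32.3 in anagen and 64.7 and 71.0 in the KO (2.25, SE 0.31, adjusted p = 0.0012).

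Bmp2 was higher in KO Cap-Rgcc capillaries, where it was 3.49 and 10.98 CPM in WT telogen, 7.04 and 4.95 in anagen and 129 and 42.6 in the KO. The KO values came from 124 and 31 UMIs in 16 and 6 cells, of which 34 and 13 UMIs lay in the cell with the most. The difference was 3.67 (SE 0.58, adjusted p = 6.6e-04) and ran from 2.56 without KO S1 to 4.63 as single libraries were left out. It was called in all 14 alternatives that could be fitted. In Cap-Kdr cells Bmp2 had too few UMIs for the main test, but it was called there without the correction between libraries. Which capillary population held the change thus depended on the clustering. Over all blood ECs the values were 11.7 and 13.96 CPM in WT telogen and 48.2 and 16.5 in the KO (1.35, SE 0.38, adjusted p = 0.015), and that call rested on KO S1, without which the difference was 0.31 (adjusted p = 0.45). DESeq2 (adjusted p = 0.27) and 3 of the other settings also ended it. Blood and lymphatic ECs differed in the Bmp2 response by 1.91 (SE 0.57, adjusted p = 0.029), which ended without WT telogen S1 (0.27), WT telogen S2 (0.052) or KO S1 (0.18). Cells called fibroblast-like had 17.7 and 16.8 CPM in WT telogen and 6.47 and 6.08 in the KO, from 2 and 3 UMIs (-1.78, SE 0.53, adjusted p = 0.028), which ended without KO S2 (adjusted p = 0.10), with DESeq2 (adjusted p = 0.18), without the correction between libraries (-0.73, adjusted p = 0.27) and with the replicate number as a block (adjusted p = 0.055).

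Bmp6 was lower in KO arteries and higher in KO capillaries. Artery-like ECs had 91.8 and 64.6 CPM in WT telogen and 45.2 and 24.9 in the KO, without overlap (-1.18, SE 0.29, adjusted p = 0.0097). Cap-Kdr cells had 30.1 and 26.0 against 55.2 and 77.6 (1.07, SE 0.35, adjusted p = 0.035) and Cap-Rgcc cells 8.15 and 8.24 against 29.2 and 24.7 (1.74, SE 0.46, adjusted p = 0.015). None of the 3 calls held with DESeq2 (adjusted p = 0.089, 0.24 and 0.15), and single libraries ended each of them: WT telogen S1 all 3 (adjusted p = 0.071, 0.11 and 0.099), WT telogen S2 both capillary calls (0.18 and 0.077), KO S1 the Cap-Rgcc call (0.087) and KO S2 the Cap-Kdr call (0.16). Without the correction between libraries the artery difference was -0.83 (adjusted p = 0.080) and the Cap-Kdr difference 0.42 (adjusted p = 0.26), and with cells thinned to 3000 UMIs both ended as well (adjusted p = 0.073 and 0.12). Over all blood ECs Bmp6 differed by -0.24 (SE 0.19, adjusted p = 0.38). Bmp7 had no call, with differences of 1.42 (SE 0.75, adjusted p = 0.20) in perineurial-like cells and 0.31 (SE 0.76, adjusted p = 0.77) in cells called fibroblast-like. Bmper gave 14 UMIs in the KO libraries, 10 of them in cells called fibroblast-like, and had no KO call in the main fits.

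Inhba was called lower in the KO in perineurial-like and immune cells, and Inhbb in blood ECs as a whole and in Cap-Rgcc but higher in Cap-Kdr. Inhba in perineurial-like cells was 43.2 and 36.3 CPM in WT telogen (167 and 180 UMIs), 46.8 and 52.9 in anagen and 9.33 and 15.6 in the KO (3 UMIs in each). The KO values lay below all WT values (-1.84, SE 0.48, adjusted p = 0.015). The call ended with DESeq2 (adjusted p = 0.054), with cells thinned to 3000 UMIs (-1.57, adjusted p = 0.056) and without WT telogen S1 (adjusted p = 0.14), WT telogen S2 (0.054) or KO S1 (-1.58, adjusted p = 0.10). Inhba was not called in fibroblast-like cells (-0.36, adjusted p = 0.73), in pericyte-like cells (0.13, adjusted p = 0.94) or in Schwann-like cells, where WT telogen gave 28 and 38 UMIs and the KO 0 and 0 (adjusted p = 0.092). In immune cells Inhba gave 152 and 255 UMIs in WT telogen, 47 and 0 in anagen and 0 and 1 in the KO, nearly all in macrophage-like cells and concentrated in few of them, with 25 and 82 cells in WT telogen. The ratio of WT telogen to KO was 21.2 with a counting interval of 3.79 to 840 (edgeR adjusted p = 0.040), and the call ended without either WT telogen library (adjusted p = 0.28 and 0.33), with all 6 libraries in one fit (0.14) and with cells thinned to 3000 UMIs (0.12).

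Inhbb in blood ECs was 22.6 and 25.2 CPM in WT telogen, 31.5 and 22.1 in anagen and 14.2 and 15.4 in the KO, again below all WT values (-0.71, SE 0.22, adjusted p = 0.024). The call ended with DESeq2 (adjusted p = 0.19), at clustering resolution 1.2 (-0.60, adjusted p = 0.13), under the stricter cell limits (-0.53, adjusted p = 0.16) and without WT telogen S1 (0.065), WT telogen S2 (0.14) or KO S1 (0.060). In Cap-Rgcc it was 53.5 and 64.5 CPM against 18.8 and 19.2 (-1.60, SE 0.32, adjusted p = 0.0029), and in Cap-Kdr 12.9 and 8.67 against 26.4 and 55.8 (1.71, SE 0.51, adjusted p = 0.021). The Cap-Kdr difference reversed to -1.48 (adjusted p = 0.0021) without the correction between libraries, and ended without WT telogen S1 (0.076), WT telogen S2 (0.19) or KO S2 (1.16, adjusted p = 0.21). The Cap-Kdr call also ended with DESeq2 (adjusted p = 0.147), without the low-count filter (0.140) and under the stricter cell limits (0.0502). With both capillary populations summed, Inhbb was 35.3 and 37.3 CPM against 21.1 and 30.5 (-0.54, SE 0.27, adjusted p = 0.15), where 29.8% of all genes were called. The other 4 members tested in the summed capillaries were called. Bmp2 (7.07 and 13.4 CPM against 93.0 and 30.5) was higher by 2.63 (adjusted p = 9.3e-04) in every alternative, down to 1.52 without KO S1. Bmp4 (5.14 and 2.82 CPM, 8 and 4 UMIs, against 18.9 and 8.57) was higher by 1.78 (adjusted p = 0.022), which ended without WT telogen S2 (1.41, adjusted p = 0.17) or KO S1 (1.015, adjusted p = 0.40), with DESeq2 (0.16) and with all 6 libraries in the fit (0.073). Bmp6 was higher by 1.13 (adjusted p = 0.0070) and Fstl1 was lower (-0.81, adjusted p = 0.016). DESeq2 (0.082 and 0.13) and clusters without the correction between libraries (0.074 and 0.13) ended both, thinning to 3000 UMIs ended that of Bmp6 (0.053), and leaving out WT telogen S2 (0.11) or KO S1 (0.074) that of Fstl1. In a test of the difference between the responses of the 2 capillary populations, also added after seeing the data, 1 of 4 members tested was called in anagen (Inhbb, with 0.0833% of all genes called) and 2 of 4 in the KO (Inhbb and Bmp2, with 3.27% called).

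**Figure D4:**
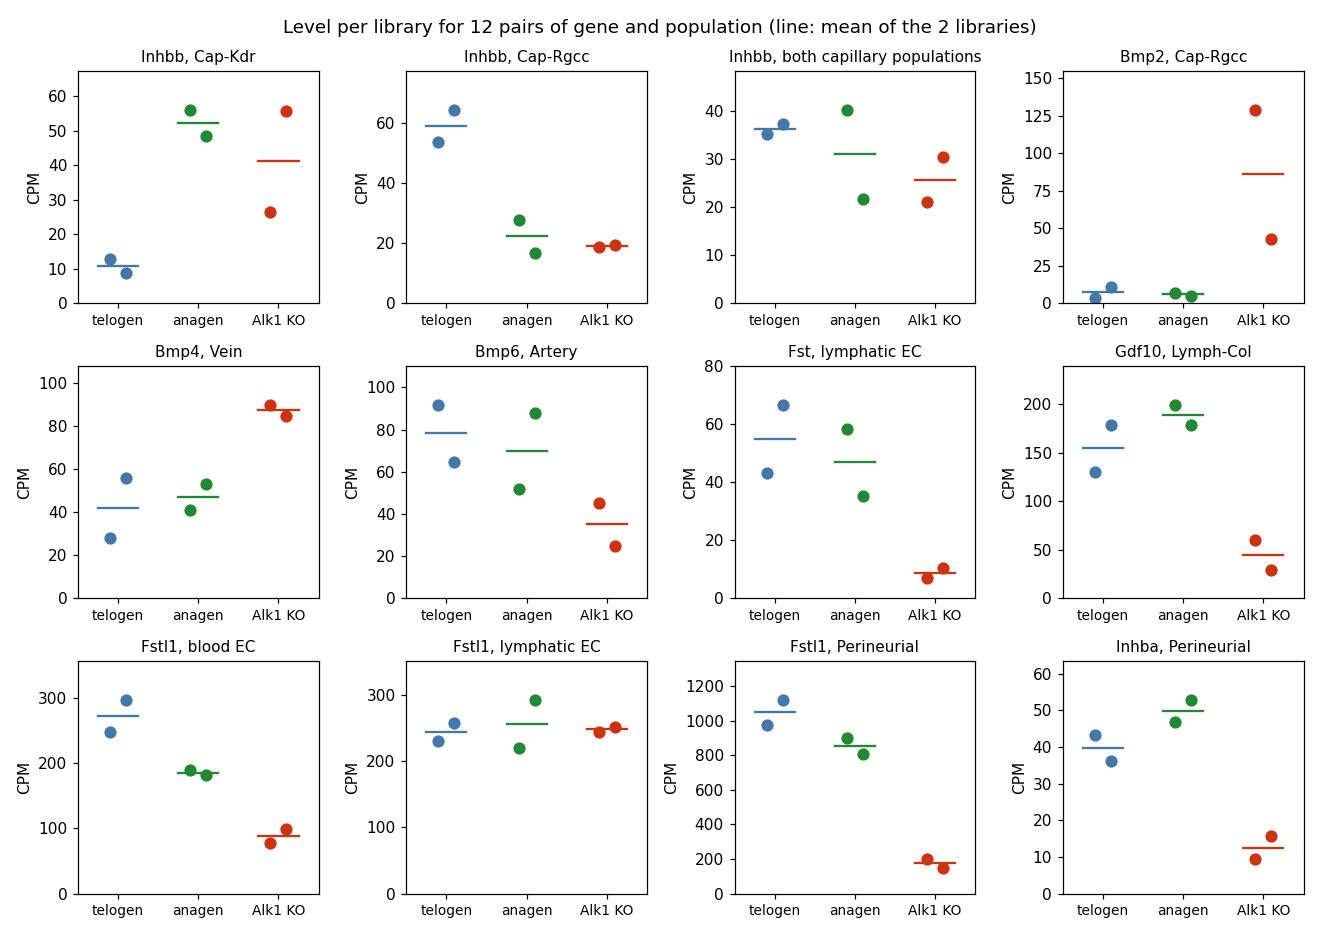
CPM per library (points) and group mean (bars of the mean) for 12 pairs of gene and population in WT telogen, WT anagen and Alk1 KO telogen, with 2 libraries per group. The KO points of Fst in lymphatic ECs (7.10 and 10.4 CPM) and Gdf10 in Lymph-Col (60.2 and 28.7 CPM) lie below every WT point. Those of Bmp4 in vein-like ECs lie above every WT point.

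The rest of the pathway was read from lists of 21 other ligands, 22 other antagonists, 14 receptors and 18 Smads and target genes. In KO blood ECs, where 31.2% of all genes were called, no other ligand of 2 tested was called, and of 7 antagonists tested 0 rose and 2 fell, Nog, which encodes the BMP antagonist noggin (-1.45, adjusted p = 0.039), and Nbl1. Of 10 receptors tested 3 rose, the co-receptors Tgfbr3 (0.80) and Rgmb (0.75) and the type II receptor Bmpr2 (0.42), and 1 fell, the endothelial co-receptor Eng (-0.60). Of 17 Smads and targets tested 2 rose and 3 fell. Smad1, a BMP receptor substrate, was 82.5 and 98.03 CPM in WT telogen and 186 and 215 in the KO. Id1 and Id3, transcription factors that BMP signalling is known to induce, fell by 0.86 and 0.92 on the log2 scale, from 469 and 435 to 252 and 256 CPM for Id1 and from 659 and 578 to 332 and 333 for Id3.

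In KO lymphatic ECs, where 25.3% of all genes were called, the inhibitory Smads and Eng were higher. The 3 other ligands tested were all called lower. Of 8 antagonists tested 1 rose and 1 fell, and of 10 receptors tested 2 rose and 0 fell. Of 15 Smads and targets tested 6 rose and 2 fell. Smad7, which encodes an inhibitory Smad induced by the pathway, was 13.2 and 9.37 CPM in WT telogen, 13.2 and 8.85 in anagen and 60.1 and 61.5 in the KO (2.36, SE 0.20, adjusted p = 3.4e-05), and Smad6 went from 0 and 0 UMIs to 79 and 51. Eng rose from 142 and 125 CPM to 356 and 388 (1.42, SE 0.13, adjusted p = 5.2e-05) and Bmpr2 by 0.85. Nog, at 1 and 0 UMIs in WT telogen, had 37 and 38 in the KO. The difference between the blood and lymphatic responses was tested for the same lists, where 18.1% of all genes were called. Called higher in blood ECs were 2 of 3 other ligands, 0 of 9 antagonists, 1 of 11 receptors and 3 of 17 Smads and targets. Called lower were 0, 1, 1 and 8 of them. Among the lower were Nog, Smad7, Eng and Atoh8, another BMP target, at -6.74, -2.33, -1.98 and -2.60. The Cap-Kdr marker list was higher in the same cells, as given above, and its part in these differences was not tested.

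In the anagen comparison no gene of the 4 lists was called in blood ECs. In lymphatic ECs 1 other ligand was called, Gdf15, a stress-responsive cytokine of the family, at 1735 and 2094 CPM in telogen against 3847 and 2904 in anagen (0.94), where 1.55% of all genes were called. In perineurial-like cells, with 0.635% called, 4 genes were, the matricellular protein gene Smoc2 (0.83), Eng (1.55), Id2 (1.39) and Id3 (0.80). Id3 there was 771 and 706 CPM in telogen and 1113 and 1329 in anagen, with all anagen values above telogen.

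Genes whose pattern was most like each member were sought by Pearson's r of log2(CPM + 1) over 44 points, 11 populations in each of the 4 WT libraries, among 10483 genes with a mean of at least 5 CPM. The points share libraries and populations, so r is a description. Inhba was most like Smim1 (r = 0.93), Ebf2 (0.91) and Egfr (0.90), Fstl1 most like Fbn1 (0.93), Bmper most like Tac1 (0.92), Inhbb most like Scarb1 (0.85), Gdf10 most like Fhdc1 (0.85) and Fst most like Mfap2 (0.85). For Bmp2, Bmp4, Bmp6 and Bmp7 the nearest genes were Id4 (0.80), Cadps2 (0.82), Npnt (0.78) and Amy1 (0.82).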

How the data were processed

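The UMI counts were deposited as 6 filtered gene-by-barcode matrices, 1 per mouse. The submitters' notes name Cell Ranger 6.0.1 and the build mm10 for their making. No barcode held fewer than 500 UMIs. Cells with 200 to 5000 genes and under 10% mitochondrial UMIs were kept, log-normalized and clustered with scanpy 1.11.5 on 3000 variable genes (85 genes of the panel and pathway lists left out), 30 principal components corrected between libraries with a Harmony procedure, 20 neighbours and Leiden resolution 0.6. A cluster was named where 3 or more listed markers were at least 2-fold higher than in the other cells and reached 25% of the cluster. This left 1727 ECs outside the named EC populations and 1191 cells unnamed. Doublets were kept, and removing those that Scrublet called was an alternative.

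Counts were summed per library and population and tested with edgeR 4.0.16 (filterByExpr, TMM, quasi-likelihood, Benjamini-Hochberg over all genes) in R 4.3.3, where each library held at least 5 cells. Between populations, the 4 WT libraries entered with the library as a block. The pipeline was tested on simulated data with known changes. Every member was counted in every group, though not every value is printed, and only some of the called pathway genes were named. Alternatives were DESeq2 1.42.0, RLE scaling, no low-count filter, no fold threshold, the replicate number as a block, all 6 libraries in one fit, each library left out, limits of 500 genes and 5% mitochondrial UMIs, resolution 1.2, no correction between libraries, and cells thinned to 3000 UMIs. Thinning draws each cell down to a fixed number of UMIs. Intervals are exact at 95%, and they and the limit of 3 counts behind a zero cover counting error only. The members and lists were chosen with earlier results of these data known. Where the sources used here do not say otherwise, the 2 libraries of a group are taken as separate mice.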

Additional observations from a re-analysis of the deposited data

Results flagged for a closer look

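The KO response of 3 members differed between blood and lymphatic ECs by a test of the difference itself, on the log2 scale: Bmp2 by 1.91 (SE 0.57, adjusted p = 0.029), Bmp4 by 0.92 (SE 0.27, adjusted p = 0.027) and Fstl1 by -1.59 (SE 0.16, adjusted p = 1.1e-05). The Fstl1 difference was called in all 14 alternatives run, while those of Bmp2 and Bmp4 were each lost in 5. The make-up of the lymphatic ECs differed between KO and WT telogen, and its part in these differences was not tested.

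The responses of the 2 capillary populations differed as well, in a test added after seeing the data, where 0.0833% of all genes were called in anagen and 3.27% in the KO. For Inhbb the change in Cap-Kdr minus that in Cap-Rgcc was 3.63 in anagen (SE 0.41, adjusted p = 4.5e-04). In the KO it was 3.32 (SE 0.60, adjusted p = 0.0052), and these 2 tests share the WT telogen libraries. In both, the level rose in Cap-Kdr and fell in Cap-Rgcc, and Inhbb was not called with both capillary populations summed. The KO difference was kept in the 11 alternatives that could be fitted. The Cap-Kdr change in the KO reversed to -1.48 without the correction between libraries. The anagen difference ended with clusters at resolution 1.2 (3.87, adjusted p = 0.090) and without the correction between libraries (2.09, adjusted p = 0.46). For Bmp2 in the KO, the change in Cap-Kdr minus that in Cap-Rgcc was -4.84 (SE 0.76, adjusted p = 0.0018). It ended with cells thinned to 3000 UMIs (-3.53, adjusted p = 0.13), 1 of the 12 alternatives that could be fitted.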

How the results depend on the processing

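Of 72 called member differences, refitted 1008 times, 909 refits kept the call, 98 lost it and 1 reversed. In 44 differences the call was kept in every refit that could test it. Refits in which a member could not be tested were not counted, such as Inhba in pericyte-like cells under the stricter limits. The cause of the losses was not tested. The reversal was Inhbb in KO Cap-Kdr, -1.48 without the correction between libraries. Member calls for the KO in EC populations numbered 14 and became 8 with DESeq2 and 9 to 13 with single libraries left out. In broad populations 13 KO calls became 20 without the low-count filter and 8 (without WT telogen S1) to 17. Anagen calls in EC populations numbered 1 and became 0 with DESeq2, the stricter cell limits, no correction between libraries or thinning, 2 without the filter and 1 to 2 with libraries left out. In broad populations 0 became 8 without the filter, 1 with the replicate block and 1 to 6. The 3 differences between blood and lymphatic responses became 1 with DESeq2 or the stricter limits and 1 (without WT telogen S1 or KO S1) to 4.

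Same-numbered libraries did not deviate together (correlations of -0.24 to 0.18), and the main fits did not pair them. With 2 libraries per group this cannot show that the mice were unpaired. With the replicate block, KO calls were 12 and 16.

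The mean WT level moved to 51.9 CPM without correction and 51.0 at resolution 1.2 for Bmp6 in arteries, to 7.99 and 11.96 for Inhbb in Cap-Rgcc, and from 50.7 to 5.01 under the stricter limits for Inhba in pericyte-like cells. Shares of cells with a UMI rose with depth, thinned to 3000 UMIs and unthinned: Bmp2 in pericyte-like cells 14.5% and 30.04%, Bmp4 in Lymph-Cap 12.4% and 14.6%, Bmp6 in arteries 17.6% and 23.6%, Gdf10 in Lymph-Col 30.5% and 37.0%, and in fibroblast-like cells Bmp7 4.19% and 10.8%, Bmper 6.35% and 21.3%, Fst 21.4% and 41.8% and Fstl1 89.3% and 88.5%. Unthinned, Inhba in pericyte-like cells was 14.1% and Inhbb in Cap-Rgcc 14.5%. With 2 mice per group and the shallow KO libraries, members with few UMIs could not be tested.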

Other observations

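Among the immune cells, Bmp7 was detected in the lymphocyte-like cells. All 53 of its WT immune UMIs lay in 40 of 304 such cells, at a mean of 24.9 ± 9.75 CPM (SD, n = 4 libraries), and the 2210 macrophage-like and 423 monocyte- or dendritic-like cells held 0. Bmp2 in immune cells came from macrophage-like cells (220 WT UMIs in 107 cells) and lymphocyte-like cells (62 UMIs in 27 cells), with a library spread of 0 to 27.1 CPM in the first. These values were noticed after the populations were summed, and no comparison was run on them.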
